A study of Mus musculus with 2 samples.

Results

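Boundary cap marker genes were followed in cells traced from *Egr2*-expressing ancestors of the mouse embryo. The members are 6 genes listed as boundary cap markers, *Prss56*, *Egr2* (also called *Krox20*), *Wif1*, *Hey2*, *Npr3* and *Ntn5*. They were taken by their symbols from the 33207 genes counted. The paper names *Prss56* and *Egr2* as such markers, and whether the other members mark boundary cap cells was not tested here. Single-cell RNA sequencing was made on Tomato-positive cells of embryos that carried a Cre allele at *Egr2* over a wild-type allele (Egr2Cre/+) and the Rosa26RTom reporter, with 1 library at E11.5 and 1 at E12.5. Every group shares this genotype, and each library pooled the cells of 1 litter, sorted by fluorescence, with dead cells and doublets gated out, after the meninges, dorsal root ganglia (DRGs) and both nerve roots had been dissected. Cre acts wherever *Egr2* has been active, and the mark is inherited, so the sort holds descendants as well as cells that still make *Egr2*. Whether transcripts of the Cre allele are counted as *Egr2* cannot be told from these counts. With a single library per stage there was no replicate, no test between stages was made, and stage, litter, depth and library cannot be told apart. All intervals in parentheses are 95% and cover counting error only.

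Boundary caps are clusters of neural crest cells that sit where sensory and motor roots cross the surface of the neural tube. They keep motor neuron cell bodies inside the cord, and they supply Schwann cells of the roots, satellite glia and some sensory neurons. *Egr2* encodes the zinc finger factor that later drives myelination in Schwann cells, and *Prss56* encodes a secreted trypsin-like serine protease. *Wif1* encodes a secreted inhibitor that binds Wnt ligands, *Hey2* a transcriptional repressor induced by Notch, *Npr3* the clearance receptor of natriuretic peptides, and *Ntn5* a secreted protein of the netrin family.

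The upstream sequences of *Prss56*, *Egr2* and *Wif1* are shown because *Prss56* was found in the same cells as each of the others more often than expected at their depth at E12.5, and that of *Hey2* because it responds to Notch. Each is the stretch of 250 bases before the start of the canonical transcript in GENCODE M39 on GRCm39, the build of the counts, read on the strand of the gene. Capitals mark the letters of a searched motif, found in *Wif1* and *Hey2*.
Prss56, chr1:87110783-87111032, plus strand: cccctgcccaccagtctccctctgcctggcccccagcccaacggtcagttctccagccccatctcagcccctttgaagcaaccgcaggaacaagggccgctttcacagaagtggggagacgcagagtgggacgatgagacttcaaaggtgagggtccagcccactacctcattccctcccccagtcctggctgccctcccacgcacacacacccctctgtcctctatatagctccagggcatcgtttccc
Egr2, chr10:67373442-67373691, plus strand: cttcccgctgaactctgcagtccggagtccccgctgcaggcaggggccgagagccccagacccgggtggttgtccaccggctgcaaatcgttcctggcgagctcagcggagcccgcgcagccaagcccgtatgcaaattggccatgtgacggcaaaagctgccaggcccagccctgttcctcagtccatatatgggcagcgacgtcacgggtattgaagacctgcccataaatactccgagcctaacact
Wif1, chr10:120869615-120869864, plus strand: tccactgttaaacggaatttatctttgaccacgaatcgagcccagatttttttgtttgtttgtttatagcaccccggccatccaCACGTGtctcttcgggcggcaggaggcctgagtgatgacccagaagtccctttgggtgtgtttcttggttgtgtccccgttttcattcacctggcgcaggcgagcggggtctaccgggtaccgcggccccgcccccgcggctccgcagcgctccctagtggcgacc
Hey2, chr10:30718829-30719078, minus strand: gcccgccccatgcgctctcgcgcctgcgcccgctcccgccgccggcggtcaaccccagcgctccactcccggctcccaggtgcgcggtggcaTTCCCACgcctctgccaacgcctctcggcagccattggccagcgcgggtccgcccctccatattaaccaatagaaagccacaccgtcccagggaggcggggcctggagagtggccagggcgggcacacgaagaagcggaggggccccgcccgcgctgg
Motifs were searched on both strands in the same stretch of 21595 protein-coding genes. *Hey2* held GTGGGAA, the core bound by the Notch partner RBPJ, on the other strand at 158 bases, against 5.46% of all stretches. *Wif1* held the E-box CACGTG at 166 bases, against 6.30%. The EGR letters GCGTGGGCG (0.546% of stretches), the SOX letters AACAAAG (4.89%) and the TCF letters ATCAAAG (2.85%) were in none of the 6. A match or its lack describes these letters in this window and nothing of the factor.

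In the genome, *Prss56* (ENSMUSG00000036480) lies at chr1:87111033-87116130 with 13 exons, and *Egr2* (ENSMUSG00000037868) at chr10:67371305-67378018 with 2 exons in its canonical transcript. *Wif1* (ENSMUSG00000020218; 10 exons) lies at chr10:120869865-120936555 and *Hey2* (ENSMUSG00000019789; 5 exons) at chr10:30708350-30718828. *Npr3* (ENSMUSG00000022206; 8 exons) lies at chr15:11839982-11907373 and *Ntn5* (ENSMUSG00000070564; 6 exons) at chr7:45333446-45344100. All 6 are annotated as protein-coding. *Npr3* overlaps an antisense lncRNA with 16 UMIs at E11.5 and 46 at the later stage over all barcodes, and *Ntn5* overlaps *Sec1* on the opposite strand, with 19 and 80 UMIs.

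The libraries held 1431 and 3762 cell barcodes with 10287595 and 23460243 unique molecular identifiers (UMIs, each standing for a captured mRNA molecule), and the filters of the study's methods left 833 cells of E11.5 and 3496 of E12.5. The median cell had 11601 UMIs in the E11.5 library and 6140 in the other, so shares of cells with a UMI were taken after every cell was thinned to 2000 UMIs, and levels as UMIs per 1000000 UMIs (CPM) summed over a class. A total of 9 barcodes occurred in both libraries, 7 of them among the cells kept. Cells with a UMI of the glial factor *Sox10* and none of the neuronal factor *Isl1* are called glia, 413 cells or 49.6% (46.1–53.0) at E11.5 and 1213 cells or 34.7% (33.1–36.3) at E12.5. Cells with *Isl1* and no *Sox10* are called neurons (203 and 1337), and the remaining cells held both genes (104 and 286) or neither (113 and 660). The labels name the sorted cells boundary cap cells. The marker content of the sort was wider than this name, since all glia at E11.5 and 98.8% at E12.5 held 3 or more of 12 glial markers, while 95.1% and 97.3% of neurons held 3 or more of 13 neuronal markers. By the same rule 26.9% and 18.0% of glia held 3 or more neuronal markers, and 26.6% and 23.5% held 3 or more of 9 mesenchymal markers. Of neurons, 20.2% and 13.5% held 3 or more glial markers. Summed neuronal markers stood at 276 and 312 CPM in glia and at 10573 and 12788 CPM in neurons. *Sox10* is among the 12 glial markers and *Isl1* among the 13 neuronal ones. These shares and sums therefore restate in part the rule that set the classes.

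All 6 genes were highest in the glia, against neurons, at both stages. Glia held 53.0% of all UMIs at E11.5 but 90.5% of those of *Prss56*, 83.5% of *Egr2* and 82.9% of *Npr3*, with *Wif1*, *Ntn5* and *Hey2* between 76.2% and 78.6%. At E12.5 glia held 34.9% of all UMIs and between 64.0% (*Ntn5*) and 73.6% (*Prss56*) of those of the members. By CPM, all 6 were more than 2-fold above neurons at each stage, where 14.5% of the 7658 genes with at least 100 UMIs were this much higher in glia and 8.4% this much lower at E11.5, and 18.5% and 11.6% of 10415 genes at E12.5. *Ntn5* had the smallest difference, 6.90-fold (3.23–17.6) and 6.84-fold (5.22–9.11), and *Prss56* the largest.

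*Prss56* was all but absent from neurons. In the E11.5 library it had 316 UMIs in glia and 1 in neurons, a ratio of CPM of 145 (25.9–5760.3), and at E12.5 1399 UMIs in glia and 31 in neurons, a ratio of 52.2 (36.6–77.1). Thinned to the same depth, 10.2% (7.43–13.5) and 20.9% (18.6–23.3) of glia held it, against 0.493% (0.0125–2.71) and 0.542% (0.218–1.11) of neurons. The same shares for *Egr2* were 5.57% (3.56–8.24) and 5.62% (4.37–7.09) of glia and 0.985% and 1.01% of neurons, and its levels were 30.0 and 33.1 CPM in glia and 3.44 and 3.20 CPM in neurons. Neuronal shares of the other 4 genes lay between 0 of 203 cells for *Ntn5* and 2.96% for *Hey2*, both at E11.5. The exact upper limit for *Ntn5* there was 1.80%. Before thinning 2.96% of the same neurons held *Ntn5*. Free RNA in droplets gives such low shares too, and its part in them was not tested.

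Of the remaining members in glia, *Npr3* was held by 18.6% (15.0–22.7) of E11.5 glia and 31.9% (29.3–34.7) of E12.5 glia, and *Hey2* by 19.1% (15.4–23.3) and 21.9% (19.5–24.3). *Wif1* was held by 6.78% (4.55–9.65) and 10.7% (9.01–12.6), and *Ntn5* by 4.36% (2.60–6.80) and 8.68% (7.13–10.4). A second random draw of UMIs gave 1.94% and 9.45% for *Ntn5* and 22.8% and 34.0% for *Npr3*. Both E11.5 values of that draw lay outside the intervals given here. Without thinning the shares at E11.5 and E12.5 were 28.1% and 30.9% for *Prss56*, 24.9% and 15.8% for *Egr2*, 26.4% and 25.8% for *Wif1*, 54.5% and 47.2% for *Hey2*, 63.4% and 62.6% for *Npr3*, and 18.4% and 21.3% for *Ntn5*. For *Egr2*, *Hey2*, *Wif1* and *Npr3* the unthinned shares thus ran lower at E12.5, in the shallower library, while the thinned shares of *Hey2*, *Wif1* and *Npr3* given here ran higher. That of *Egr2* had no firm order, since another random draw gave 6.78% and 5.36%, and with glia set by 3 or more glial markers *Hey2* stood at 21.8% and 21.6%.

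**Figure D1:**
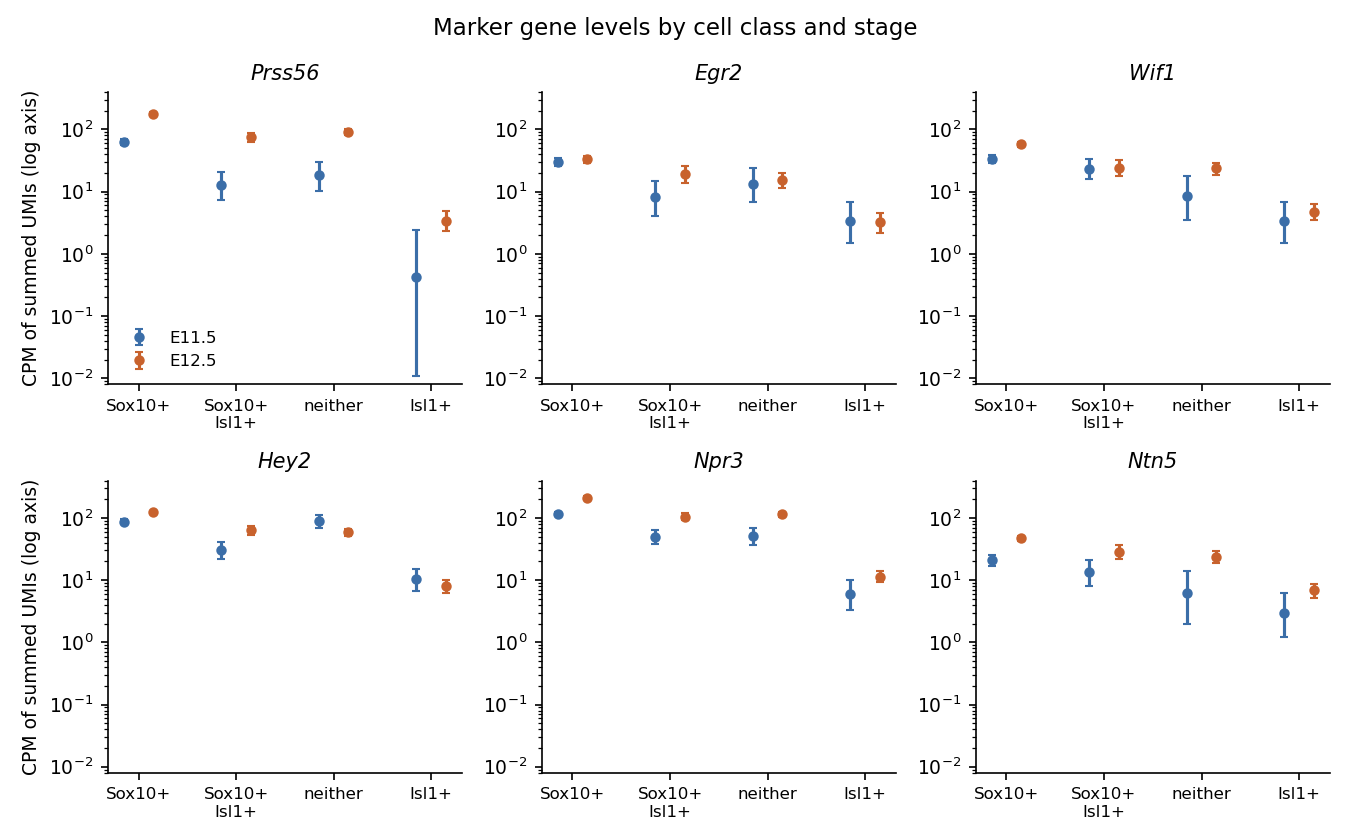
Level of each marker gene in CPM of UMIs summed over all cells of a class (log axis), at E11.5 (blue) and E12.5 (orange), in cells with Sox10 UMIs only, with Sox10 and Isl1, with neither, and with Isl1 only; bars are exact 95% Poisson intervals. In each panel the cells with Isl1 only lie lowest, and Prss56 falls from 62.4 and 179 CPM in the Sox10-positive cells to 0.429 and 3.43 CPM there.

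Cells with both *Sox10* and *Isl1* stood between the classes. At E11.5 they held *Prss56* at 12.7 (7.42–20.4) CPM, *Egr2* at 8.24 (4.11–14.7), *Wif1* at 23.2 (15.8–33.0), *Hey2* at 30.7 (22.0–41.7), *Npr3* at 49.4 (38.2–62.9) and *Ntn5* at 13.5 (7.99–21.3). At E12.5 the levels in this class were 74.8 (63.7–87.3) CPM for *Prss56*, 19.1 (13.7–25.9) for *Egr2*, 24.2 (18.1–31.7) for *Wif1*, 63.2 (53.0–74.8) for *Hey2*, 105 (91.4–119) for *Npr3* and 28.8 (22.1–36.9) for *Ntn5*. Each of the 12 values was below that of glia and above that of neurons at its stage.

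Between the stages the glia differed most in *Prss56* and *Ntn5*. *Prss56* stood at 62.4 (55.7–69.7) CPM at E11.5 and 179 (169–188) at E12.5, a 2.86-fold (2.53–3.24) difference, and *Ntn5* at 20.7 (17.0–25.1) and 46.9 (42.2–51.9) CPM, a 2.26-fold (1.81–2.83) difference. These 2 of the 6 genes passed 2-fold, as did 4.71% of the 9430 genes with 100 UMIs or more on the higher side, and no member was among the 0.891% on the lower side. *Npr3* was 1.81-fold (1.65–2.0) higher at E12.5, at 117 and 212 CPM, *Wif1* 1.74-fold (1.45–2.08), at 33.4 and 58.0 CPM, and *Hey2* 1.42-fold (1.27–1.59), at 87.1 and 124 CPM. *Egr2*, the gene that drives the Cre, differed by 1.10-fold (0.898–1.35), an interval that includes no difference. The median of all tested genes was 1.06-fold. In neurons 4.25% of 8712 tested genes were 2-fold higher at E12.5 and 1.23% 2-fold lower, and of the members only *Npr3* had 100 UMIs there, with a ratio of 1.89 (1.08–3.58).

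**Figure D2:**
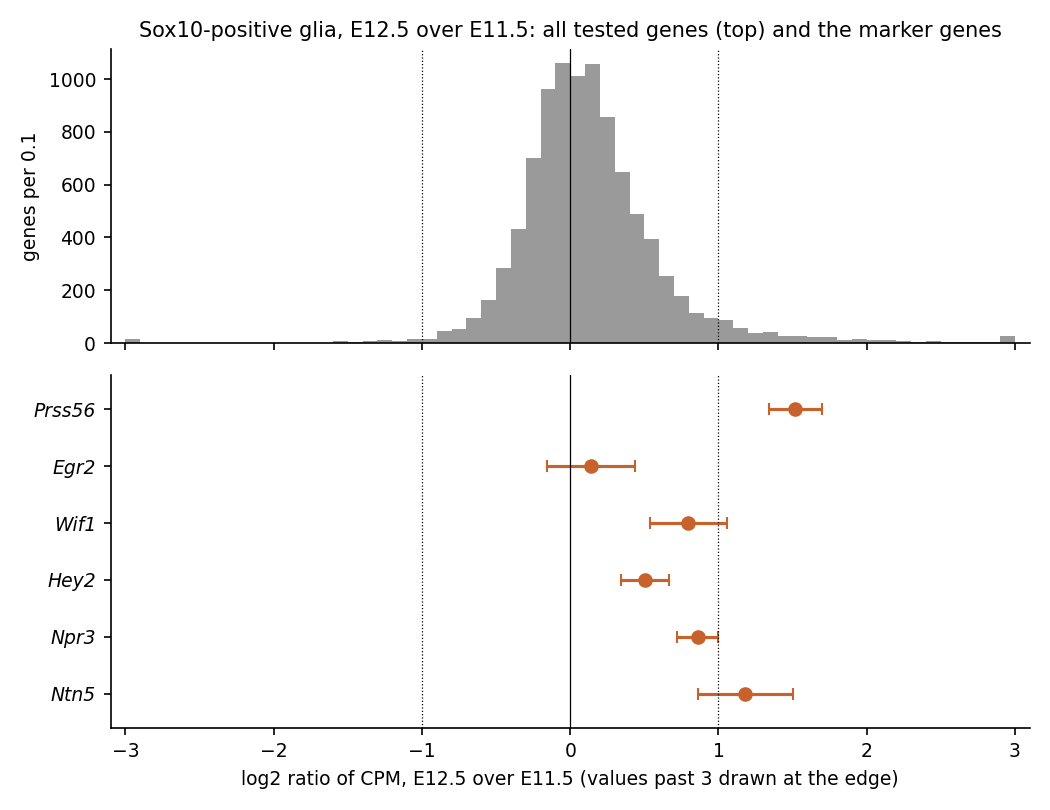
Top, the number of genes per 0.1 of log2 ratio of glial CPM at E12.5 over E11.5, for the 9430 genes with at least 100 UMIs; bottom, the 6 marker genes with exact 95% intervals from counting. Dotted lines mark 2-fold; Prss56 and Ntn5 lie beyond it, and Egr2 lies at 0.14, near the median of all genes at 0.08.

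*Prss56* also differed between the stages in the number of UMIs that single glia held, beside a level in thinned UMIs that was 3.70-fold higher at E12.5. The share of its UMIs in the richest 10% of glia, given below, was close at both stages. With every glial cell at the same depth, 0.484% of glia (2 cells) held 3 or more *Prss56* UMIs in the E11.5 library and 5.19% (61 cells) in the E12.5 library, and the mean over cells that held any was 1.21 and 2.19 UMIs. For *Egr2* the same means were 1.04 and 1.06, and no glial cell of either stage held 3. Unthinned, single glia reached 19 and 41 *Prss56* UMIs, against a highest count of 6 and 5 for *Egr2*, 7 and 8 for *Wif1*, 9 and 9 for *Hey2*, 10 and 11 for *Npr3*, and 3 and 5 for *Ntn5*. The 10% of glia with most UMIs of *Prss56* carried 71.2% and 69.4% of them, whereas the 10% with most *Npr3* carried 36.9% and 36.1% and those with most *Hey2* 38.1% and 40.6%. The same shares were 59.2% and 72.6% for *Egr2*, 66.7% and 62.7% for *Ntn5*, and 59.8% and 57.7% for *Wif1*, so that UMIs of these genes lay in few glia too, and the shares were lowest for *Npr3* and *Hey2*, the members with most positive glia.

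To see which of the genes occur in the same cells, each of the 15 pairs was compared with the number of glia that would hold both if the genes were independent among cells of like depth. *Prss56* and *Egr2* occurred together in 45 glia at E11.5 where 31.8 were expected, a ratio of 1.41 (1.05–1.86), and in 102 at E12.5 where 60.6 were expected, a ratio of 1.68 (1.38–2.03). Of glia with *Egr2*, 43.7% and 53.1% held *Prss56*, and of glia without *Egr2*, 22.9% and 26.7% did. *Prss56* and *Wif1* occurred together in 42 glia at E11.5, where 35.1 were expected (1.2, 0.875–1.59), and in 153 at E12.5, where 96.5 were expected (1.59, 1.36–1.84). Against *Prss56*, 0 of the 5 other members reached 1.5 times the expected count at E11.5 and 2 did at E12.5, beside 1.09% of 10370 genes and 0.755% of 9409 genes held by at least 5% of glia. The highest ratio with *Prss56* at E11.5 was that of *Ntn5*, 1.43 (1.002–1.96), which stood at 1.18 (0.957–1.43) at E12.5. That of *Ntn5* turned at E11.5 after thinning, with 1 cell against 1.83 expected, while *Prss56* and *Egr2* had 4 against 2.34.

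Before thinning, *Npr3* was found with *Prss56* and with *Egr2* near the expected number. With *Prss56* its ratio was 1.02 (0.824–1.24) and 0.957 (0.845–1.08), and with *Egr2* 1.07 (0.862–1.30) and 0.875 (0.724–1.05). *Hey2* before thinning lay near the expected count with *Egr2*, at 1.12 (0.889–1.38) and 1.01 (0.825–1.22), and with *Prss56* at 1.14 (0.920–1.38) and 1.13 (0.993–1.29). Thinned E11.5 counts were small and stood further off. *Hey2* had 13 cells against 8.03 expected with *Prss56* and 8 against 4.40 with *Egr2*. *Npr3* had 7 against 4.29 with *Egr2* and 6 against 7.83 with *Prss56*. In thinned E12.5 glia *Hey2* had 63 against 53.6 with *Prss56* and 15 against 14.4 with *Egr2*. There *Npr3* had 73 against 78.2 with *Prss56* and 15 against 21.1 with *Egr2*. *Wif1* and *Ntn5*, genes of secreted proteins, shared 30 glia at E11.5 against 22.6 expected and 100 at E12.5 against 71.3 expected, a ratio of 1.33 (0.907–1.87) and 1.40 (1.15–1.69). After thinning, *Wif1* and *Ntn5* stood at 11 cells against 10.9 expected at E12.5, while *Prss56* and *Egr2* at E12.5 stood at 27 against 13.8 and *Prss56* and *Wif1* at 43 against 26.3. *Hey2* and *Ntn5* stood at 39 cells against 22.3 at E12.5 after thinning, and at 155 against 132 before it.

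**Figure D3:**
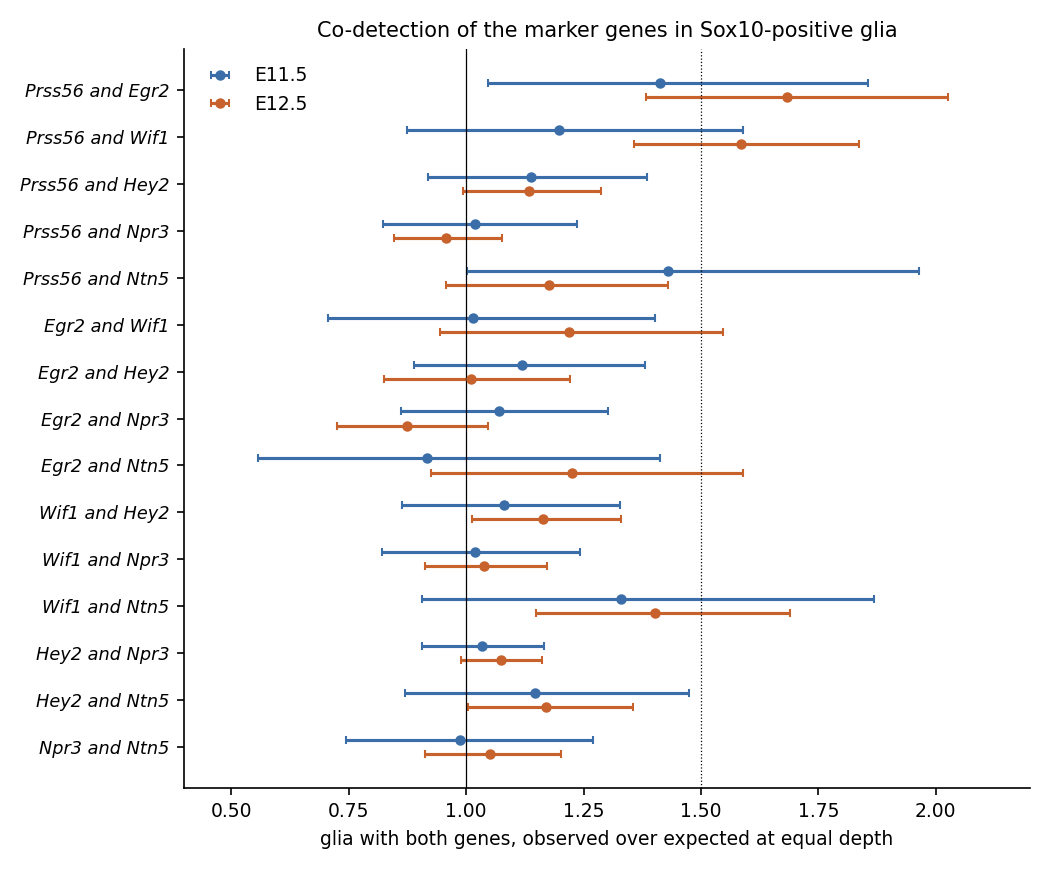
For each of the 15 pairs of marker genes, glia that held both genes divided by the number expected within bins of equal depth, at E11.5 (blue, 413 glia) and E12.5 (orange, 1213 glia); bars are exact 95% binomial intervals of the observed number, the solid line marks 1 and the dotted line 1.5. At E12.5 Prss56 with Egr2 (1.68) and with Wif1 (1.59) lie past the dotted line, and the pairs of Npr3 with Prss56 and with Egr2 have intervals that include 1.

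The full set was rarely seen in a single cell. All 6 genes were found in 3 E11.5 glia (0.726%) and 9 E12.5 glia (0.742%), and 52 (12.6%) and 136 (11.2%) glia held none. At 2000 UMIs per cell, 2 or more members were found in 14.3% (11.1–18.0) of E11.5 glia and 26.6% (24.1–29.3) of E12.5 glia, against 1.48% (0.306–4.26) and 0.697% (0.319–1.32) of neurons. Depth sets how many of the 6 can be seen in any cell, so these counts do not give the number of cells that express them.

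The glia were next divided by *Prss56* and *Egr2*. At E12.5 *Wif1* stood at 124 CPM in the 102 glia with *Prss56* and *Egr2* and at 93.7 (79.5–110) CPM in the 273 with *Prss56* alone, but at 36.3 (23.0–54.5) CPM in the 90 with *Egr2* alone and at 38.7 (33.4–44.7) CPM in the 748 with neither. Both classes with *Prss56* thus stood above both classes without it. The classes use the same glia and UMIs as the co-detection, so this restates in part that of *Prss56* with *Wif1*. *Npr3* stood at 182 (153–216), 208 (187–231), 216 (182–256) and 216 (203–230) CPM in these classes, with overlapping intervals throughout. At E11.5 the same classes held 45, 71, 58 and 239 glia, and *Wif1* stood at 37.2 (24.7–53.8), 50.5 (36.7–67.8), 37.7 (25.2–54.1) and 25.5 (19.8–32.3) CPM. There the glia with *Egr2* alone did not fall below those with both genes, and *Wif1* in the class with neither was the lowest.

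Glia were also ordered by their *Prss56* UMIs. These are again the glia and UMIs of the co-detection, so *Egr2* and *Wif1* levels restate it in part. At E12.5 *Egr2* stood at 21.6 (17.9–25.9) CPM in the 838 glia with 0 *Prss56* UMIs, at 51.5 (37.2–69.3) in the 135 with 1, at 58.5 (44.0–76.3) in the 147 with 2 to 4, and at 72.3 (52.5–97.1) in the 93 with 5 or more. *Wif1* stood at 38.4 (33.4–44.0), 89.7 (70.6–112), 89.9 (71.6–111) and 141 (113–175) CPM in the same groups. *Npr3* did not follow, at 216 (204–229), 213 (183–247), 216 (187–248) and 159 (129–194) CPM, and its lowest value was in the group richest in *Prss56*. At E11.5 *Egr2* ran from 23.0 (18.2–28.6) CPM in the 297 glia with 0 to 71.9 (45.1–109) in the 20 with 5 or more. It had no order between, at 41.3 (28.2–58.3) with 1 and 35.0 (21.1–54.7) with 2 to 4. *Hey2* ran from 76.8 (67.8–86.6) to 147 (107–197), and *Wif1* stood at 28.2, 37.4, 53.5 and 45.8 CPM. *Npr3* was lowest in the group with 0 at this stage, at 109 (98.6–121), 126 (103–154), 144 (114–179) and 124 (87.9–171) CPM. *Sox10*, which defined the class, stood at 327, 354, 363 and 330 CPM in these groups at E11.5 and at 366, 403, 446 and 412 CPM at E12.5.

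**Figure D4:**
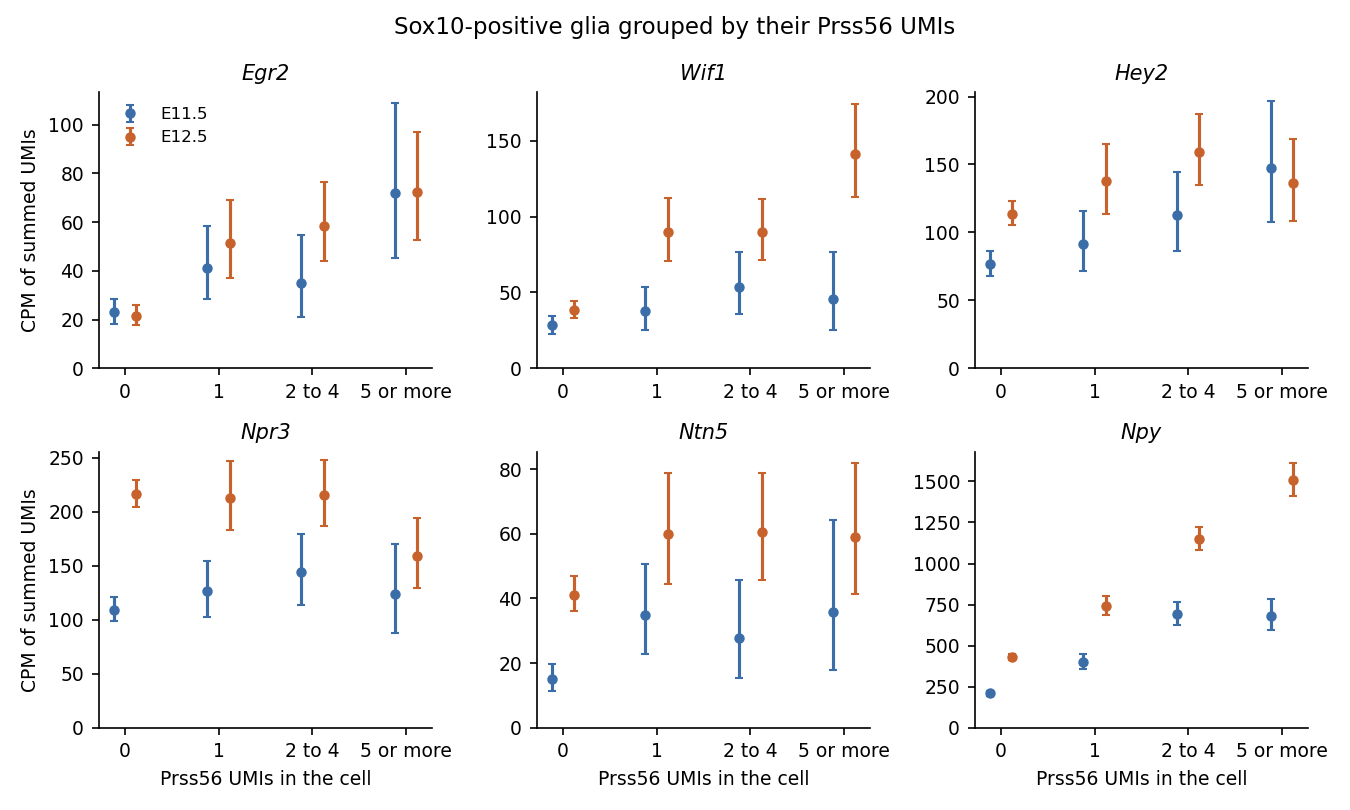
Levels in CPM of UMIs summed over glia grouped by their number of Prss56 UMIs, at E11.5 (blue) and E12.5 (orange), for 5 marker genes and Npy; bars are exact 95% Poisson intervals and each axis starts at 0. Egr2 ran from 21.6 to 72.3 CPM and Npy from 433 to 1510.0 CPM at E12.5, while Npr3 ran from 216 to 159. At E11.5 Npr3 was lowest in the group with 0, at 109 CPM. Npy was picked by its correlation with Prss56 in these same glia.

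The genes most like each member were taken by the Pearson correlation of log-scaled counts over glia, the lower of the values at both stages, among 9259 genes held by at least 5% of glia. These values describe 413 and 1213 cells that share a library and differ in depth. Predicted genes aside, *Prss56* ran most with *Npy*, which encodes neuropeptide Y (r of 0.360 and 0.347), *Apcdd1*, a Wnt inhibitor of the membrane (0.351 and 0.310), *Chl1*, an adhesion molecule of the L1 family (0.298 and 0.347), *Plpp1*, a lipid phosphatase (0.269 and 0.334), *Glul*, glutamine synthetase (0.260 and 0.467), and *Glp2r*, a peptide hormone receptor (0.239 and 0.280). *Npy* stood at 211 (196–227) CPM in glia with 0 *Prss56* UMIs and 683 (594–783) in those with 5 or more at E11.5, and at 433 (415–450) and 1510.0 (1414–1611) at E12.5. *Glul* stood at 152 (142–162) and 774 (706–847) CPM in the same groups at E12.5. Both genes were picked by their correlation with *Prss56* in these same glia. Their levels by *Prss56* UMIs therefore restate that correlation and are no separate result.

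The other members had weaker partners. *Egr2* was most like *Gfra1*, a co-receptor of GDNF (0.221 and 0.192), *Dpysl3* (0.265 and 0.190) and *Chl1* (0.268 and 0.189). *Wif1* and *Hey2* both had *Npy* in the first place (0.235 and 0.305 for *Wif1*, 0.288 and 0.244 for *Hey2*), and *Ntn5* had *Car11* (0.207 and 0.201). Among the nearest genes of *Npr3* was *Ednrb*, the endothelin receptor of crest-derived cells (0.203 and 0.201). After thinning, *Npy* was in the first place for *Prss56* and *Wif1*, *Gfra1* for *Egr2*, *Ptn* for *Hey2* and *Ednrb* for *Npr3*, with correlations no higher than 0.197. Other partners did not hold their place, since *Plpp1* and *Glul* came to ranks 357 and 213 for *Prss56*, with lower values of 0.0400 and 0.0504, and *Car11* to rank 792 for *Ntn5*, with 0.0177. No member was among the 5 nearest genes of another.

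Around *Egr2*, 13 partners and Schwann cell targets were examined, of which 10 had 100 UMIs in glia, and 6 of these were 2-fold higher at E12.5 and 0 lower, with a median of 2.51-fold. Over all 9430 tested genes, to set beside this and the lists below, 4.71% were 2-fold higher and 0.891% lower. *Mag*, a myelin glycoprotein, stood at 1.38 and 12.1 CPM (8.77-fold, 4.10–22.4), *Pmp22*, a peripheral myelin protein, at 22.9 and 106 CPM (4.61-fold, 3.80–5.65), and *Mbp*, myelin basic protein, at 16.8 and 56.2 CPM (3.35-fold, 2.65–4.27). Beside them *Egr2* stood at 30.0 and 33.1 CPM. *Nab2*, a corepressor that binds EGR proteins, stood at 98.4 and 80.3 CPM (0.817-fold, 0.725–0.920). In single glia *Egr2* was found with *Nab2* in 71 cells where 66.6 were expected at the earlier stage and in 87 where 74.4 were expected at the later.

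Around *Wif1*, 18 of 35 Wnt pathway genes had 100 UMIs in glia at the 2 stages, and 1 of them passed 2-fold, with a median of 1.10-fold. It was *Sfrp5*, another secreted Wnt inhibitor, at 40.3 and 124 CPM (3.08-fold, 2.64–3.6). Against neurons, 9 of 15 tested genes of this list were 2-fold higher in glia of E11.5 and 11 of 16 in glia of E12.5, with 0 lower at either stage. Over all tested genes 14.5% were higher and 8.4% lower at E11.5, and 18.5% and 11.6% at E12.5. The largest differences of this list at E12.5 were those of *Dkk2*, a secreted modulator of Wnt co-receptors (35.6-fold, 19.1–75.0), *Sfrp5* (29.5-fold, 21.4–42.0), *Tcf7*, a nuclear effector (10.1-fold, 5.55–20.2), and the inhibitor *Sfrp1* (9.60-fold, 7.37–12.7). With *Prss56* at E12.5, the ligand gene *Wnt5a* shared 57 glia where 34.0 were expected (1.68, 1.28–2.16) and *Tcf7* 47 where 29.5 were expected (1.59, 1.18–2.10). These were the 2 of 18 tested genes of the list at 1.5 or more, beside 0.755% of all genes.

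Around *Hey2*, 1 of 12 tested Notch genes (median 1.22-fold) passed 2-fold between the stages, the effector *Hes5*, at 10.5 and 32.1 CPM (3.06-fold, 2.27–4.20). Against neurons the Notch genes went both ways, with 7 of 15 tested genes 2-fold higher and 4 lower in glia at E12.5, and 6 and 4 of 12 at E11.5. Over all tested genes these shares were 18.5% and 11.6% at E12.5 and 14.5% and 8.4% at E11.5. The effector *Hes1* was 20.9-fold (14.0–32.3) higher in glia at E12.5, and *Heyl* stood at 133 CPM in glia and 9.28 in neurons, beside 15.3-fold (12.1–19.7) for *Hey2*, whereas the ligand gene *Dll3* was lower, at 1.15 CPM in glia and 17.2 in neurons, and the Notch glycosyltransferase gene *Mfng* stood at 12.1 and 180 CPM. *Hes5* and *Prss56* shared fewer glia than expected at E12.5, 23 where 40.6 were expected (0.567, 0.360–0.847). At E11.5 they did not, with 14 where 11.9 were expected (1.18, 0.650–1.96). How many of all genes lay this far below the expected count was not counted.

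Around *Npr3*, 4 of 9 genes of the natriuretic peptide system had 100 UMIs over both stages in glia, with a median of 1.45-fold. *Nppc*, which encodes C-type natriuretic peptide, passed 2-fold, at 5.73 (29 UMIs) and 25.5 CPM (200 UMIs), 4.46-fold (3.01–6.83). The receptor and the kinase of the pathway were higher in neurons than in glia. *Npr2*, the signalling receptor of this peptide, stood at 3.16 CPM in glia and 106 in neurons at E11.5 and at 7.02 and 143 at E12.5, and *Prkg1*, a kinase activated by cyclic GMP, at 71.5 and 529 CPM and at 124 and 1036 CPM. *Nppc* and the clearance receptor *Npr3* were thus both higher in glia at E12.5, by 14.4-fold (8.68–25.8) and 18.6-fold (15.2–22.9).

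Around *Ntn5*, 5 of 12 netrins and netrin receptors were tested in glia, of which 1 was 2-fold higher and 2 were 2-fold lower at E12.5, with a median of 0.559-fold. *Ntng1*, a membrane-bound netrin, stood at 30.2 and 111 CPM (3.67-fold, 3.09–4.39). The receptor genes *Dcc* and *Unc5d* were lower at E12.5, at 320 and 136 CPM (0.424-fold, 0.392–0.459) and at 13.8 and 4.73 CPM (0.342-fold, 0.223–0.516). Against neurons, 2 of 4 tested genes of this list were 2-fold higher in glia of E11.5 and 1 was lower. In glia of E12.5, 2 of 6 were higher and 2 lower. Over all tested genes these shares were 14.5% and 8.4% at E11.5 and 18.5% and 11.6% at E12.5. *Dcc* was 6.71-fold (5.53–8.21) and 8.47-fold (7.12–10.2) higher in glia than in neurons, while the receptor gene *Unc5c* was 2.15-fold and 2.26-fold lower. Of 4 semaphorin and cadherin genes linked to boundary caps, *Sema3b* stood at 7.11 and 21.3 CPM (3.0-fold, 2.08–4.43) and was the only gene of 2 tested that passed.

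Among 10 genes of Schwann cell precursors, all tested, 3 were 2-fold higher in E12.5 glia, namely *Dhh*, a hedgehog ligand gene (2.61-fold, 2.03–3.39), *Gfra3*, an artemin co-receptor (2.46-fold, 2.08–2.91), and *Fabp7*, a fatty acid carrier (2.03-fold, 1.99–2.08), with 0 lower and a median of 1.36-fold. *Dhh* shared 113 E12.5 glia with *Prss56* where 74.2 were expected (1.52, 1.27–1.81). It was the 1 gene of these 10 at 1.5 or more, beside 0.755% of all genes. None of the 6 cell cycle genes passed 2-fold between the stages (median 0.928-fold), and of 7 tested neurogenic genes 1 did, *Tlx3*, at 4.35 and 14.0 CPM (3.23-fold, 2.03–5.37), with a median of 0.771-fold.

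Cells that divide and cells on the way to neurons were looked for among the glia that held each member. With 2 or more of 6 cell cycle genes at equal depth, 57.8% (48.2–66.9) of glia with *Prss56* were counted as cycling at E11.5 against 42.8% (37.1–48.6) of those without, and 38.0% (33.0–43.2) against 38.8% (35.4–42.3) at E12.5. The median depth of these 4 groups before thinning was 13756.5, 11913, 5820.5 and 6297 UMIs. Glia with *Hey2* at E12.5 were cycling in 43.6% (39.4–47.8) against 33.9% (30.1–37.8), and glia with *Wif1* in 46.5% (40.8–52.2) against 35.7% (32.5–39). Positive glia were set on unthinned UMIs and were the deeper ones here, with medians of 6892 against 5695.5 UMIs for *Hey2* and 6717.5 against 6011 for *Wif1*, and the part of depth was not tested. At E11.5 the intervals overlapped for both genes. Cycling glia there were 49.8% (43.1–56.5) against 43.6% (36.4–51.0) for *Hey2* and 46.8% (37.2–56.6) against 47.0% (41.3–52.8) for *Wif1*. At least 2 neurogenic genes were found in 5.17% (1.92–10.9) of *Prss56*-positive and 12.8% (9.22–17.1) of *Prss56*-negative glia at E11.5, and in 1.91% (0.772–3.90) and 5.93% (4.41–7.79) at E12.5. The share was lower in positive glia at both stages for *Egr2*, *Wif1*, *Hey2* and *Npr3* too, with *Npr3* at 7.25% (4.42–11.1) against 16.6% (11–23.5) and at 3.20% (2.06–4.72) against 7.31% (5.02–10.2). Intervals of positive and negative glia were apart only at E12.5, for *Prss56* and *Npr3*. Those of *Egr2*, *Wif1* and *Hey2* overlapped at both stages, with *Egr2* at 6.80% (2.78–13.5) against 11.9% (8.54–16.1) at E11.5. *Neurog1*, the factor that starts sensory neurogenesis, shared 12 glia with *Prss56* at E11.5 where 21.7 were expected (0.552, 0.287–0.953). At E12.5 it shared 8 where 25.4 were expected (0.315, 0.136–0.619). Of 7 neurogenic genes tested with *Prss56* at E11.5, 2 were low by the fold used for calls, *Neurog1* and *Srrm4* (0.446, 0.122–1.13). The other 5 were not, and the median ratio was 0.988. At E12.5 *Neurog1* was the 1 low gene of 6 tested, with a median of 0.797. How many of all genes lay as low as *Neurog1* was not counted. The share of glia with at least 2 neurogenic genes went the other way for *Ntn5* at E12.5. It was 7.0% (4.20–10.8) of positive and 4.03% (2.85–5.51) of negative glia, intervals that overlap.

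Cells with neither *Sox10* nor *Isl1* were divided by the list of which they held most markers. At E12.5, 331 of the 660 held mostly glial markers, and in these *Prss56* stood at 184 (164–206) CPM, *Npr3* at 216 (194–239), *Hey2* at 102 (86.8–118), *Wif1* at 45.9 (36.1–57.6), *Ntn5* at 43.5 (34.0–54.9) and *Egr2* at 30.0 (22.2–39.7), levels near those of glia. They carried 300 of the 310 *Prss56* UMIs of all cells without *Sox10* and *Isl1*, and their median depth was 5038 UMIs against 6088 in glia. At E11.5, 44 of 113 cells held mostly glial markers, with *Prss56* at 62.8 (35.2–104) CPM and *Hey2* at 163 (116–223).

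*Hey2* was also found in cells with pericyte markers. In the 50 cells with mostly pericyte markers at E11.5 it stood at 66.8 (44.4–96.6) CPM, in 22 cells before thinning. After thinning 2 of the 50 cells (4.0%, 0.488–13.7) held it, against 19.1% (15.4–23.3) of E11.5 glia. In these 50 cells *Prss56*, *Wif1* and *Ntn5* had 0 UMIs, which allows up to 8.80 CPM, while *Egr2* had 3 UMIs and *Npr3* 1. At E12.5 the 30 such cells held *Hey2* at 34.5 (13.9–71.0) CPM and the 159 cells with mostly mesenchymal markers held it at 21.5 (12.9–33.6) CPM. Those mesenchymal cells held *Npr3* at 24.9 (15.6–37.7) CPM, with *Prss56* at 1 UMI and *Egr2* at 0 UMIs, which allows up to 4.18 CPM. In the 31 cells with mostly myeloid markers the members had 0 or 1 UMI each. Groups under 30 cells rest on few UMIs, such as 7 of *Npr3* in 2 E11.5 cells with mostly endothelial markers, and 9 of *Npr3* and 4 of *Prss56* in 13 E12.5 cells with fewer than 3 markers of any list. Pericyte markers summed to 44.3 and 43.4 CPM in glia, where 1 of the 9 was at 0, against 2278 CPM in the E11.5 cells without *Sox10* and *Isl1*.

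**Figure D5:**
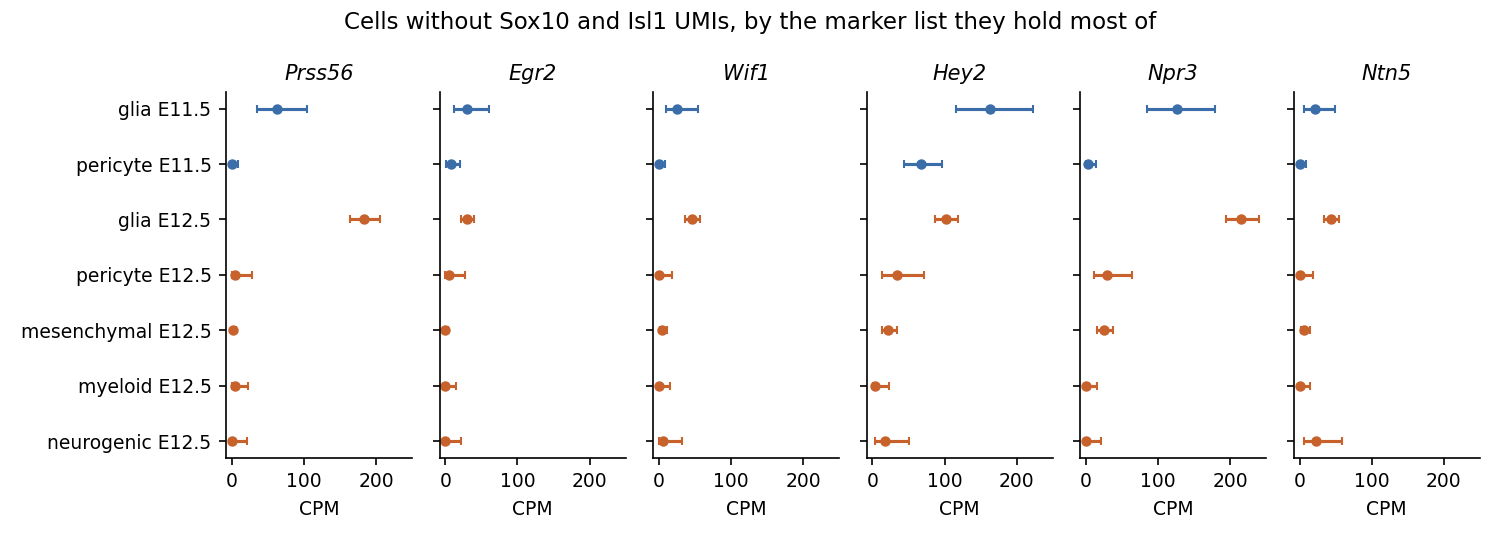
Levels in CPM of summed UMIs of the 6 marker genes in cells without Sox10 and Isl1 UMIs, grouped by the marker list they hold most of, at E11.5 (blue) and E12.5 (orange); bars are exact 95% Poisson intervals. The cells with mostly glial markers carry all 6 genes, and among the other groups drawn, each of at least 30 cells, Hey2 in cells with pericyte markers at E11.5 stands highest at 66.8 CPM.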

How the data were processed

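Unique molecular identifiers were counted per gene and cell by the authors with Cell Ranger (7.0 per the labels, 7.0.1 in the matrix header) on mm39, from a 10x 3′ kit, and the counts were deposited as whole numbers without normalization, for the 1431 and 3762 barcodes kept by the authors. Intronic counting is not given in the sources used here, and cells traced with Prss56-Cre, named in the same methods, were not analysed here. Following the methods text, cells with more than 10% mitochondrial UMIs, fewer than 2000 (E11.5) or 1000 (E12.5) UMIs, or a Scrublet score of 0.2 or more (scanpy 1.11.5) were removed. The score removed 7 and 67 cells.

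Classes were set by 1 or more UMIs of *Sox10* and *Isl1*. Levels are CPM of summed UMIs with exact Poisson intervals, ratios have exact conditional intervals, and shares, after 1 random draw of 2000 UMIs per cell, have exact binomial intervals (scipy 1.17.1). Thinning left out 38 glia and 46 neurons of E12.5 and none of E11.5. Where a limit is given for a count of 0, it is the upper end of the exact 95% interval. Called genes have 100 UMIs or more and a 2-fold ratio, or 1.5 times the co-detection expected in 10 bins of equal depth. The ratio, its interval and the expected co-detection were tested on simulated data with known answers. The simulated gene totals followed the Poisson model that the interval assumes. They cannot show how it holds for UMIs gathered in few cells, as for *Prss56*. The members and lists were chosen with earlier results of these data known. The 6 members are named in full, and of each list and contrast at most 4 genes past the fold by size of change. The groups of glia by *Prss56* UMIs, and *Nab2* beside *Egr2*, were chosen after values were seen. Predicted genes were left out of the text, and some results are not reported here. No test was made, since each stage has 1 library.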

Additional observations from a re-analysis of the deposited data

How the results depend on the processing

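The stage ratios, the glial shares and the co-detection of *Prss56* and *Egr2* were recomputed under 19 alternative settings, and under 1 chosen after seeing the data, which left out the cells whose barcode occurs in both libraries. Of 248 alternative values, 194 stayed within the interval of the value reported, or within 1.5 times it for a count of genes, and 54 moved. A reversal was defined only for the stage ratios of *Prss56* and *Ntn5*, the members past 2-fold, and neither fell below 1. All 66 alternative stage ratios were above 1. That of *Prss56* ran from 2.60 to 3.70, with 3.70 from thinned UMIs and 3.25 with classes from thinned UMIs, and that of *Hey2* fell to 1.13 with thinned UMIs. The count of genes 2-fold higher at E12.5, 444, became 2364 with no minimum of UMIs, and the count of those lower, 84, became 810. Co-detection of *Prss56* with *Egr2* ran from 1.28 to 1.71 at E11.5 and from 1.61 to 1.96 at E12.5, so that the setting decides whether 1.5 is passed at E11.5. The share of glia with *Prss56* was 28.1% and 30.9% with no thinning, 5.57% and 13.4% at 1000 UMIs, 13.6% at 4000 UMIs for E11.5, 1.21% and 9.87% with 2 UMIs needed, and 18.1% at E12.5 with cells that hold both *Sox10* and *Isl1* counted as glia. Of 130 alternative shares of the other 5 members 41 moved, 38 of them by the depth of thinning or the 2 UMIs needed. No paired analysis was possible because each stage has 1 library and the results come from no test.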

Other observations

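The barcodes that the filters removed also held the marker genes. The 598 removed at E11.5 had *Npr3* at 153 CPM, *Prss56* at 84.5, *Hey2* at 75.1, *Egr2* at 30.8, *Ntn5* at 22.8 and *Wif1* at 13.4, from 745624 UMIs in all. The 266 removed at E12.5 had *Npr3* at 103 CPM, *Prss56* at 76.7, *Hey2* at 60.8, *Ntn5* at 22.9, *Wif1* at 18.9 and *Egr2* at 14.0. No neuron held all 6 members at either stage, and 1 neuron of E12.5 held 5.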
